A study of Homo sapiens with 11 samples.

Results

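Cells expressing genes of liver and gut epithelium made up 68 of the 16397 cells measured in the first sequencing run of 3 samples of H9, an established human embryonic stem cell line. They were chosen by their own measured RNA, as cells with at least 5 unique molecular identifiers (UMIs, each marking 1 captured RNA molecule) summed over AFP, TTR, SERPINA1, FABP1 and LGALS4, and with less than 0.15% of their UMIs in the cardiomyocyte genes TNNT2 and MYH6. Cells had to hold at least 1000 UMIs from 500 genes, with at most 30% of UMIs from mitochondrially encoded genes. All 3 samples were H9 cells collected on day 42.5. They were a 2D culture, chambered heart organoids (cardioids) treated with PD173074, an inhibitor of FGF receptors, and cardioids left without PD173074. The labels name no clone, number of organoids or dosing schedule. The chosen cells numbered 2 of 8204 in the 2D culture, 46 of 4626 in cardioids with PD173074 and 20 of 3567 in cardioids without it.

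Liver and intestine both arise from definitive endoderm, the germ layer that lines the early gut tube next to the forming heart. Hepatocytes secrete plasma proteins such as albumin, transthyretin and fibrinogen, and fetal hepatocytes and yolk sac endoderm make alpha-fetoprotein (AFP). Intestinal epithelium is set by the homeobox factors CDX1 and CDX2, and shares with liver the factors HNF1 and HNF4 and several lipid carriers, among them FABP1, APOA1 and APOB.

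The 5 genes of the rule cover both organs. AFP and TTR encode plasma carriers, SERPINA1 the protease inhibitor alpha-1-antitrypsin, FABP1 a fatty acid binding protein of liver and intestine, and LGALS4 a galectin of gut epithelium. Promoter sequences from RefSeq on GRCh38.p14 are shown for AFP, ALB, FABP1 and FGB, which were picked with their motif matches known, as the 4 of 10 windows searched gene by gene that hold the HNF1 half-site. LGALS4, the gut marker of the rule, is shown as 1 of the other 6, which lack it. Each run is the 250 bases before the annotated start, 5′ to 3′ on the gene's strand. Capitals mark matches to the HNF1 half-site GTTAAT and to the CDX motif TTTATNG, on either strand.
AFP, chr4:73435971-73436220, plus strand: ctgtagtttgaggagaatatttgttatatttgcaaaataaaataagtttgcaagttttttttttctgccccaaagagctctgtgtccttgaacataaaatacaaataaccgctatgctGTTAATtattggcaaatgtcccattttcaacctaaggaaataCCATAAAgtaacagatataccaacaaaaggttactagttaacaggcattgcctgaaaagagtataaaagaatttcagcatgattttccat
ALB, chr4:73404037-73404286, plus strand: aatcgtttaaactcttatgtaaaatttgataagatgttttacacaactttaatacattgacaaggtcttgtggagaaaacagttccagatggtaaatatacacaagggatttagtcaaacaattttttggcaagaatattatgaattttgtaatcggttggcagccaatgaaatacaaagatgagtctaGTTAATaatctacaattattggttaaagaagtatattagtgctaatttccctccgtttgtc
FABP1, chr2:88128063-88128312, minus strand: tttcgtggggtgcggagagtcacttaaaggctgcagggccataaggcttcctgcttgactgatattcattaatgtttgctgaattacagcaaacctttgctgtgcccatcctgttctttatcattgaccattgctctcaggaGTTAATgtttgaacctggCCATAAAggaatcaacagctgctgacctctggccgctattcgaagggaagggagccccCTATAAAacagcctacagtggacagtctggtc
FGB, chr4:154562730-154562979, plus strand: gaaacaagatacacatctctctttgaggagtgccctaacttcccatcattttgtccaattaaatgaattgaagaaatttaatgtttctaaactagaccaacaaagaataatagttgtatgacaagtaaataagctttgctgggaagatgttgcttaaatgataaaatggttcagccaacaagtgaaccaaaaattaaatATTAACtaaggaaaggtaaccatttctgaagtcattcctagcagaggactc
LGALS4, chr19:38812946-38813195, minus strand: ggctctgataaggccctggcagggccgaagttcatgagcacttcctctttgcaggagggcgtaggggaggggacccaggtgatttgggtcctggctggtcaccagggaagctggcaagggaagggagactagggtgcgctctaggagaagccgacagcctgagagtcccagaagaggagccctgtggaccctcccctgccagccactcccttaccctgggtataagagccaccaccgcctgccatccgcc
The HNF1 half-site lay 132 to 127 bases before the start in AFP, 61 to 56 in ALB, 108 to 103 in FABP1 and 51 to 46 in FGB, where it was on the opposite strand. Among all 35116 promoter windows of the same length, 6.23% held this motif. It was present in 2 of the 4 rule markers matched in the table, in 4 of the 12 matched genes that led the cells, in 4 of 11 matched liver-list genes and in 3 of 9 matched gut-list genes. The CDX motif was in 8.93% of all windows, in 2 of the 4 matched rule markers, 3 of 12 leading genes, 0 of 11 liver-list genes and 1 of 9 gut-list genes. It lay in AFP at 90 to 84 bases and in FABP1 at 90 to 84 and 32 to 26 bases before the start, the last overlapping a TATAAA match. These matches describe letters and not binding.

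Repeat sequencing runs existed for every sample. Within a sample, the 16 pairs of runs shared 99.3% to 99.9% of their barcodes, so each sample counts once and no test between samples was possible. Intervals below are exact 95% intervals that cover counting error only. The first runs held between 23074862 and 46304366 UMIs. These 3 libraries shared 9 to 22 barcodes in pairs, and no chosen cell's barcode was among those chosen in another library. The chosen cells were deeper than the rest in the cardioids. With PD173074 they had a median of 18921.5 UMIs, from 1343 to 53327, against 6768 over all cells, and without it 8510, from 4017 to 32679, against 5392. No doublets were removed.

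The share of these cells was 0.994% (0.729 to 1.32) with PD173074 and 0.561% (0.343 to 0.865) without it, a difference of 0.434 percentage points (0.0415 to 0.818). In the 2D culture it was 0.0244% (0.00295 to 0.0880). The direction depended on the denominator. Among cells below the TNNT2 and MYH6 limit, the share was 3.71% of 1241 cells with PD173074 and 4.12% of 485 without it, a difference of -0.417 points (-2.76 to 1.46). Thinning cells to 2000 UMIs, with cells below that left out, brought the share to 0.627% with PD173074 and 0.416% without it.

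The threshold fell in a sparse range. With PD173074, 3 cells lay just outside with 4 marker UMIs, and the members closest to it had 6, 8 and 9. Without PD173074, 2 cells had 2 marker UMIs and the lowest member had 6. Another 5 cells with PD173074 and 1 without it met the marker minimum but were over the cardiac limit, with 0.151% to 1.02% of UMIs in TNNT2 and MYH6.

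The rule markers were spread unevenly over the cells. AFP ranged from 0 to 127 UMIs per cell with PD173074, with a median of 1, and from 0 to 154 without it, with a median of 10. SERPINA1 ranged from 0 to 475 (median 1.5) with PD173074 and from 0 to 534 (median 24) without it. TTR had similar medians, 9 and 9.5, within ranges of 0 to 163 and 0 to 399. All 3 liver-associated markers overlapped widely between the 2 cardioid samples. FABP1 ran from 0 to 213 UMIs (median 3.5) with PD173074 and from 0 to 17 (median 0) without it. LGALS4 ran from 0 to 175 (median 8) and from 0 to 30 (median 0). The cells with the most FABP1 and LGALS4 were all in the treated sample, although cells at 0 occurred in both. All 5 markers were present together in 10 of 46 cells with PD173074 and in 4 of 20 without it.

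**Figure D1:**
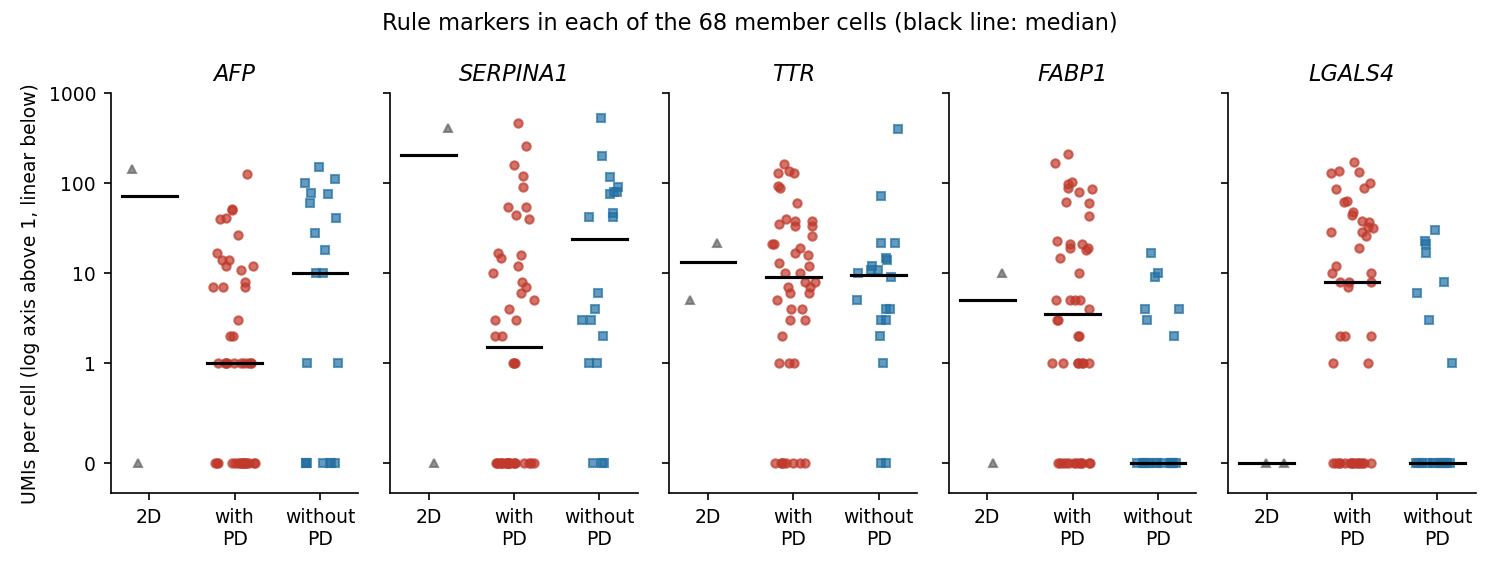
UMIs of the 5 rule markers in each of the 68 cells (vertical axis, logarithmic above 1 and linear below), by sample, with 2 cells in 2D culture, 46 with PD173074 and 20 without it. Points are cells, spread sideways for visibility, and black lines are medians; FABP1 and LGALS4 reach 213 and 175 UMIs with PD173074, and 17 and 30 without it.

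Outside these cells the markers were at about 1 CPM or less. The rule takes every low-cardiac cell with 5 or more marker UMIs out of the other cells, so these levels are a description. In other cardioid cells each marker had between 0.0880 and 1.20 CPM, the standard scaling of a gene's summed UMIs to a common library total, and at most 0.415% of cells held 1 or more of its UMIs. EPCAM, an adhesion protein of epithelia, was seen in 42 of 46 cells with PD173074 and in all 20 without it. Keratin 8 (KRT8) was seen in 45 and 20. Neither gene is particular to these cells. EPCAM was seen in 40.9% and 30.1% of other cells with and without PD173074, and KRT8 in 64.0% and 66.7%. In other low-cardiac cells with 5 or more UMIs summed over GABRP and VTCN1, genes of amnion- or surface-like epithelium, EPCAM was in 93.4% and 84.9%, and KRT8 reached 2478 and 2842 CPM. EPCAM reached 763 CPM with PD173074 and 681 without it, a log2 ratio of 0.16 (-0.11 to 0.44). KRT8 reached 1175 and 1146 CPM, a log2 ratio of 0.04 (-0.17 to 0.25).

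Genes outside the rule were then ranked by their ratio to other cells. The rule acts on the same cells, so their levels are a description. The 20 leading genes, by ratio to all other cardioid cells among genes at 100 CPM or more, included the fibrinogen chains FGB and FGG, the apolipoproteins APOA2, APOB and APOC3, and ORM1, an acute-phase plasma protein. They also held PHGR1, KRT20, CDH17 and MEP1A of gut epithelium, and TFF3, AGR2 and REG4 of its secretory cells. Others, such as GNRH2, which encodes a peptide hormone, and PSCA, a surface antigen, belong to neither group by name. FGB was at 481 CPM in the chosen cells of both cardioids and 0.320 in other cells. PHGR1 was at 1410 and 0.775 CPM, and TFF3 at 534 and 0.202. The glutathione transferases GSTA1 and GSTA2, which detoxify in liver and gut, were at 555 and 355 CPM against 0.219 and 0.168, though their near-identical sequences can share reads. Of 4612 genes that reached 50 CPM on the higher side, 462 were higher in the chosen cells with their whole interval beyond 2-fold (10.0%) and 848 were lower (18.4%).

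**Figure D2:**
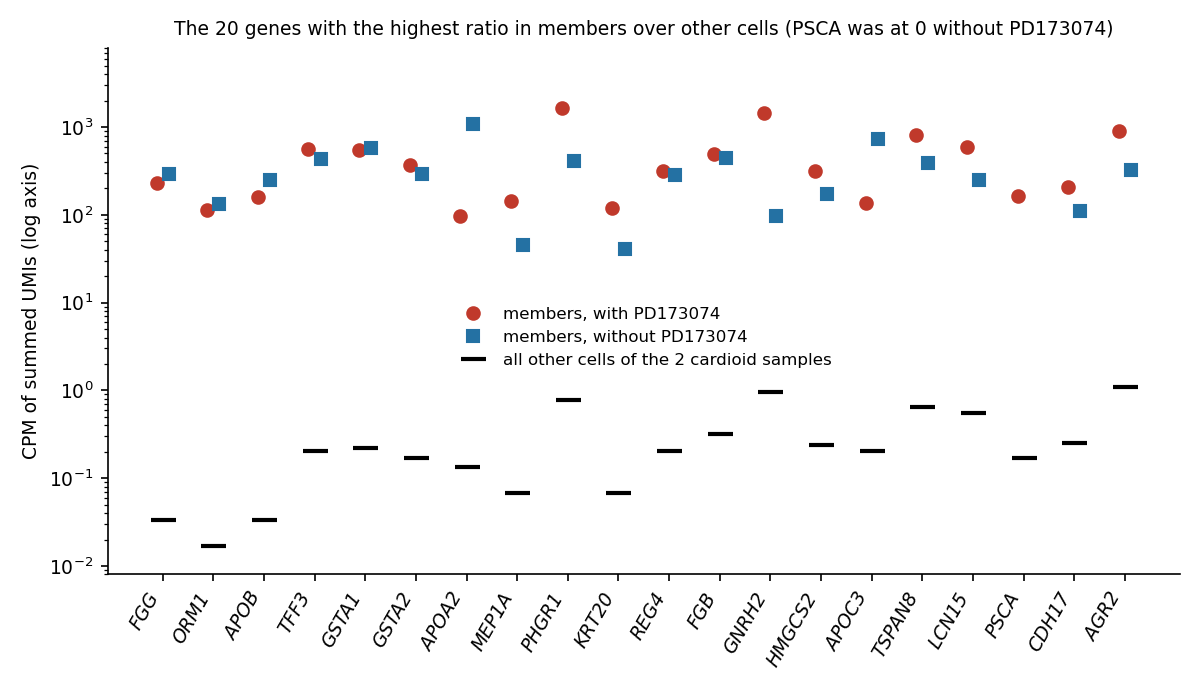
Level of the 20 leading genes (vertical axis, CPM of summed UMIs, logarithmic) in the chosen cells with and without PD173074 and in all other cells of both cardioid samples. Other cells lie near or below 1 CPM for each gene, while APOA2, APOC3 and GNRH2 differ most between the 2 samples among those detected in both.

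Hepatocyte and gut genes that were not in the rule were then counted in the chosen cells. Their lists were chosen with earlier results of these data known, so the counts are a description and no independent check of the label. A liver list of 14 secreted plasma proteins and a gut list of 15 epithelial genes were counted in each cell, and 3 or more UMIs counted as present. With PD173074, 31 of 46 cells had both lists, 6 the liver list only, 4 the gut list only and 5 neither. Without PD173074, 10 of 20 had both, 7 liver only, 2 gut only and 1 neither. In the 2D culture, 1 cell had the liver list only, with 350 liver-list UMIs, and 1 had neither. Several liver-list genes, such as APOA1, APOB and FGB, can also be made in intestine, so both lists in 1 cell do not make it a hepatocyte. These classes are ranges of a count and not cell types. The share of other cells that reach 3 UMIs of a list was not counted. APOA1 of the liver list was seen in 6.16% of other cells with PD173074 and 16.5% without it. PHGR1 of the gut list was seen in 0.262% and 0.0564%.

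The gut list was present in 76.1% of the cells with PD173074 and in 60% without it, a difference of 16.1 points (-6.82 to 39.7). The liver list alone was present in 6 of 46 and 7 of 20, a difference of -22.0 points (-44.7 to -0.878). After thinning to 2000 UMIs, the gut list was found in 58.1% of 43 cells with PD173074 and 35.0% of 20 without it. The 3 treated cells with fewer UMIs were left out, and none of them had the gut list. ALB and AHSG, plasma proteins of hepatocytes, together reached 3 UMIs in 4 of 46 cells with PD173074 and in 6 of 20 without it, a difference of -21.3 points (-43.8 to -1.97). This split was not planned and was added after the 2 lists.

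The ALB-bearing cells differed in depth. With PD173074, 3 cells had 10 or more ALB UMIs, at 139, 33 and 29, and these cells held 2096, 1983 and 1704 UMIs in all. They had no more than 1 gut-list UMI, and 0.0477%, 0.0504% and 0.704% of UMIs from mitochondrially encoded genes. Without PD173074, the 3 such cells had 79, 43 and 14 ALB UMIs in 16959, 4017 and 4112 UMIs. The cell with 79 also carried 228 APOA1 UMIs, 8 gut-list UMIs, 15 COL1A1 UMIs and 32 VIM UMIs. Low mitochondrial shares, under 1%, occurred in 13 of 46 and 8 of 20 chosen cells, against 4.80% and 4.88% of other cells. The share was 16.6% and 27.2% in other cells under the cardiac limit and outside a group marked by GABRP and VTCN1. The part of these cells in these results was not tested.

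**Figure D3:**
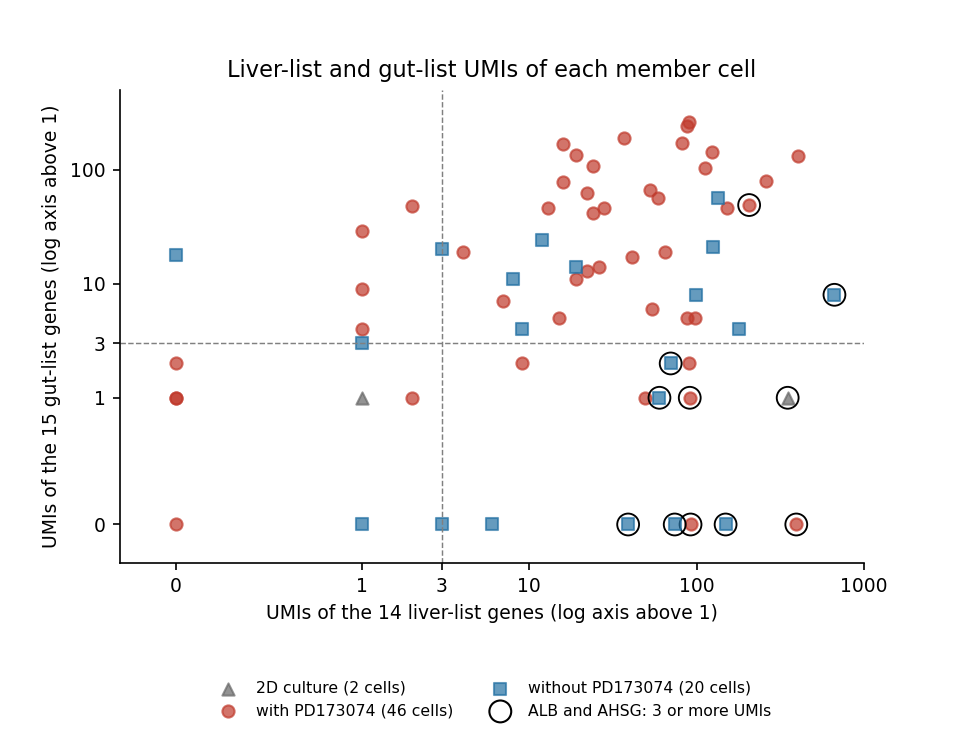
UMIs of the 14 liver-list genes (horizontal) and of the 15 gut-list genes (vertical) in each chosen cell, both axes logarithmic above 1 and linear below, with dashed lines at 3 UMIs. Rings mark cells with 3 or more UMIs of ALB and AHSG, which lie mostly below the gut-list line; of the 46 cells with PD173074, 31 lie beyond both lines.

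Some cells went against the label. With PD173074, 1 cell had 15 SERPINA1, 4 TTR and 1 AFP UMIs, no UMI of either list, no EPCAM, and 38 COL1A1 and 93 VIM UMIs, genes of stromal cells. TTR made up more than 80% of marker UMIs in 5 treated cells, 2 untreated ones and 1 of the 2D culture. In 2 cells with PD173074, CHGA, a granule protein of hormone-secreting cells, had 25 and 29 UMIs. TFF3, a peptide of mucus-secreting cells, had 20 or more UMIs in 8 cells with PD173074 and 1 without it. The cells with 20 or more TFF3 UMIs all had the gut list, so they did not go against the label. The 2 CHGA cells held 4 and 1 gut-list UMIs.

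Other cell types were looked for by lists. The 18 cardiomyocyte genes summed to a median of 314 CPM per chosen cell with PD173074, from 39.8 to 11927, and to 226 CPM without it, from 0 to 4038. Pooled over cells, the list was at 992 CPM in the chosen cells with PD173074 and 474 without it, against 21015 in other cardioid cells. The rule limits TNNT2, a gene of this list, so low levels were partly set by the choice of cells and are a description. Natriuretic peptide A (NPPA) was at 0 in the chosen cells of both samples. The 12 stromal genes ranged from 0 to 22774 CPM with PD173074, the highest being the COL1A1 cell, and from 0 to 6141 without it. Of the 12 endothelial genes, 6 had a UMI with PD173074 and 2 without it, and CDH5 was at 0. Of the 12 blood genes 2 had UMIs in each sample, CSF1R and the lysozyme gene LYZ, and the list reached 4539 CPM in a treated cell and 1813 in an untreated one. PTPRC, CD14 and HBG1 were at 0. Of the 17 genes of other endoderm organs, PDX1 and TG had UMIs with PD173074 and PAX8 without it, at up to 139 and 116 CPM per cell, while NKX2-1 and SFTPB of lung were at 0. Neural genes had UMIs in 18 of 46 treated cells, 2 of them at 5429 and 2703 CPM, and in 11 of 20 untreated ones at up to 486 CPM. Cartilage genes reached 562 CPM in a treated and 2479 in an untreated cell. Amnion- or surface-like genes reached 1158 and 2019 CPM, with TFAP2A at 0 in both samples. The part of these genes in the results was not tested.

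Levels in the chosen cells were then compared between the cardioids. Of 3980 genes at 50 CPM or more in the higher sample, 54 were higher with PD173074 (1.36%) and 92 lower (2.31%), with the whole interval beyond 2-fold. With trimmed-mean (TMM) scaling the split turned to 81 higher and 69 lower. TMM shifts every log2 ratio by 0.24. Over all these genes the median log2 ratio was -0.16, and ratios below are to be read against it. Counts of called genes in the lists below are to be read against the 1.36% and 2.31%. At these shares a short list often has 0 called. Few cells carried many of these differences. For each gene, the UMIs of its top cell, the cell with the most, were taken out of the higher sample, with that cell's other UMIs kept in the total. On these values 17 genes were still higher (0.427%) and 21 lower (0.528%).

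Among gut epithelial genes, FABP1, PHGR1 and LGALS4 were higher with PD173074, and the others at the floor did not pass. FABP1 was at 1361 CPM with PD173074 and 247 without it, a log2 ratio of 2.46 (2.05 to 2.90). PHGR1, a small glycine-rich protein of gut epithelium, was at 1636 and 414 CPM, a log2 ratio of 1.98 (1.66 to 2.32). LGALS4 was at 1581 and 550 CPM, a log2 ratio of 1.52 (1.24 to 1.82). All 3 were also counted as higher without the top cell, at log2 ratios of 2.18 for FABP1, 1.74 for PHGR1 and 1.33 for LGALS4. FABP1 and LGALS4 were part of the rule, so their levels also bear on which cells were chosen. Of the 30 gut epithelial genes, 18 reached the floor, with 3 higher, 0 lower and a median log2 ratio of 1.14, 2 of the 3 being genes of the rule. CDX2 did not pass, with 113 CPM with PD173074 and 85.8 without it, a log2 ratio of 0.40 (-0.36 to 1.23). Neither did VIL1, which bundles actin in microvilli, at 69.6 and 40.4 CPM, nor the cadherin CDH17 at 208 and 111 CPM.

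Secretory genes of gut were mixed. AGR2, a protein-folding enzyme of mucus-secreting cells, was at 900 CPM with PD173074 and 328 without it, a log2 ratio of 1.46 (1.09 to 1.84). Without its top cell, which held 231 of 789 UMIs, AGR2 was no longer counted, at 0.96. CHGA came from 2 cells with PD173074 and was at 0 without it. TFF3 and REG4 were at 557 and 318 CPM with PD173074 and at 434 and 283 without it. Of 8 genes in this list at the floor, 2 were higher and 0 lower, and of 4 brush border genes at the floor 0 were either. Over all genes at the floor 1.36% were higher and 2.31% lower.

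Most plasma carriers at the floor were lower with PD173074, whereas TTR, RBP4 and the fibrinogen genes did not pass. AFP was at 528 CPM with PD173074 and 3493 without it, a log2 ratio of -2.73 (-2.90 to -2.55). SERPINA1 was at 1615 and 6738 CPM, a log2 ratio of -2.06 (-2.17 to -1.95), and both were in the rule. AHSG, a carrier made by fetal liver, was at 63.9 and 661 CPM, a log2 ratio of -3.37 (-3.85 to -2.91). AMBP was at 21.7 and 257 CPM, a log2 ratio of -3.57 (-4.41 to -2.79). Of 8 plasma carriers at the floor, 6 were lower and 0 higher, with a median log2 ratio of -3.05. Without each gene's top cell, 4 of the 8 were counted as lower. The 6 were AFP, ALB, TF, AMBP, AHSG and GC, and TF came from 1 cell without PD173074 and 1 UMI with it. As means over each cell's own CPM, AFP was at -3.02, but SERPINA1 moved to -0.62, AHSG to -0.40 and AMBP to -0.69, all within 2-fold. TTR, at 1425 and 3124 CPM, did not pass, and 1 cell held 64.5% of its UMIs without PD173074. RBP4, a retinol carrier, was at 647 and 500 CPM.

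Albumin did not keep its direction. ALB was at 232 CPM with PD173074 and 722 without it, a log2 ratio of -1.64 (-1.96 to -1.32), with 5 cells holding UMIs in each sample. The mean over cells of each cell's own CPM gave a log2 ratio of 1.11. In the treated sample 139 of 203 ALB UMIs were in 1 cell, and in the untreated 79 of 143. Without its top cell, ALB was no longer counted, at -0.48.

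Lipid carriers differed among themselves. APOA2 was at 97.0 CPM with PD173074 and 1075 without it, a log2 ratio of -3.47 (-3.85 to -3.10), and APOA4 at 20.5 and 141 CPM, -2.78 (-3.72 to -1.88). Both were counted without their top cell, and as means over cells APOA2 was at -1.60 and APOA4 at -3.19. APOA1 was at 1138 and 2953 CPM, a log2 ratio of -1.38 (-1.52 to -1.23), and was not counted without its top cell, at -0.66, and was at -0.29 as a mean over cells. APOC3, at -2.41, reversed to 0.58 without its top cell and to 1.20 as a mean over cells. APOB, the scaffold of secreted lipoproteins, was at 161 and 252 CPM and did not pass. Of 9 genes of this list at the floor, 4 were lower and 0 higher.

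Fibrinogen genes did not pass in either direction. FGB ranged from 0 to 47 UMIs per cell (median 6.5) with PD173074 and from 0 to 36 (median 2) without it, and was at 489 and 444 CPM. FGA was at 84.4 and 126 CPM, and FGG at 229 and 293. Their log2 ratios were -0.58 (-1.25 to 0.14) for FGA, 0.14 (-0.19 to 0.49) for FGB and -0.35 (-0.78 to 0.09) for FGG. The 6 coagulation genes at the floor had 0 higher and 0 lower, against 1.36% and 2.31% of all genes at the floor. Among protease inhibitors, ITIH2 was lower, at -2.98 (-4.04 to -1.98), and SPINK1 did not pass, at 500 and 636 CPM.

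**Figure D4:**
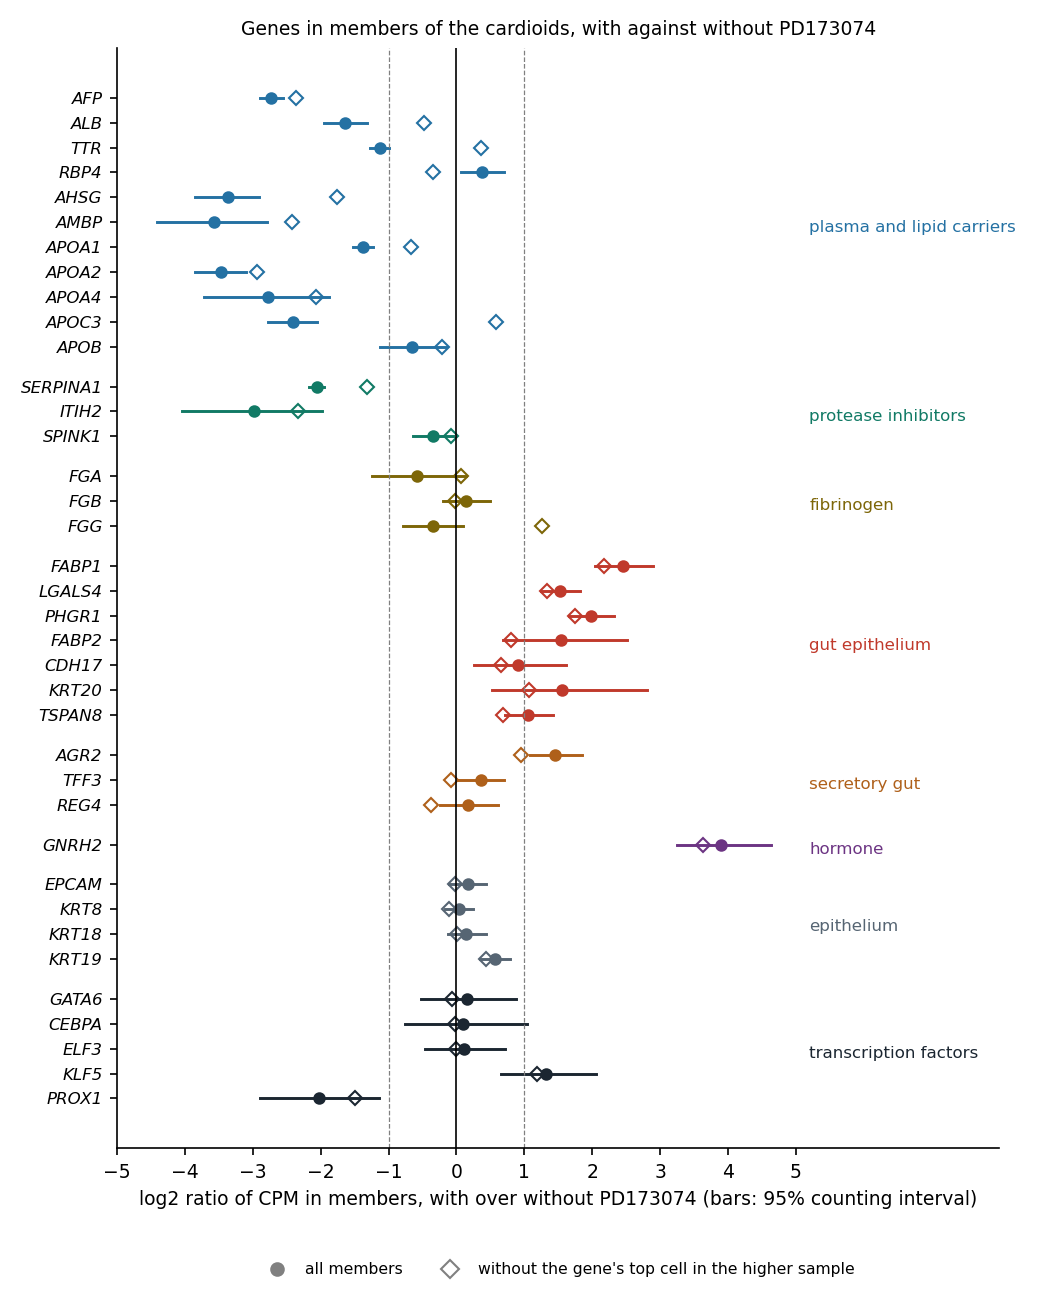
Log2 ratio of CPM in chosen cells, with over without PD173074 (horizontal), for 37 genes in 8 groups. Filled points are all members, with 95% counting intervals as bars. Open diamonds take out that gene's UMIs in its top cell of the higher sample. AFP, AHSG and APOA2 are among the genes that stay beyond the dashed 2-fold line on the lower side. FABP1, LGALS4, PHGR1 and GNRH2 are among those that do so on the higher side, and TTR and APOC3 among those that change sides.

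Most transcription factors of endoderm did not pass in either direction. HNF4A, a regulator of liver and gut genes, was at 59.3 CPM with PD173074 and 60.6 without it, a log2 ratio of -0.03 (-0.95 to 1.01). GATA6 was at 123 and 111 CPM, and CEBPA at 75.3 and 70.7. Of 9 such genes at the floor, PROX1 and HHEX were lower. PROX1, a factor of liver progenitors, was at 28.5 and 116 CPM, a log2 ratio of -2.03 (-2.90 to -1.14), and was not counted without its top cell, nor among gut-list cells alone, at -0.78. HHEX, a factor of early liver buds, had 4 UMIs with PD173074 and 17 without it.

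GNRH2, which encodes the peptide gonadotropin-releasing hormone II, was one of the 20 leading genes. It was found in 22 of 46 cells with PD173074, at up to 213 UMIs, and in 2 of 20 without it, at 17 and 2 UMIs. Its level was 1430 CPM with PD173074 and 95.9 without it, a log2 ratio of 3.90 (3.25 to 4.64), and 3.63 without its top cell. After thinning to 2000 UMIs, GNRH2 was found in 41.9% of 43 cells and in 5% of 20. All 18 cells with 10 or more GNRH2 UMIs with PD173074, and the 1 without it, had the gut list. Other cells held 1.17 and 0.616 CPM.

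The neighbouring gene moved with GNRH2. In RefSeq on GRCh38.p14, GNRH2 lies at chr20:3043622-3045747 and MRPS26, a mitochondrial ribosomal protein gene, begins 304 bases further on, at chr20:3046052-3048250, both on the plus strand. MRPS26 was at 1677 CPM with PD173074 and 404 without it, a log2 ratio of 2.05 (1.73 to 2.40). In the 18 treated cells with 10 or more GNRH2 UMIs it was at 2791 CPM (2639 to 2950), and in the 24 treated cells with none at 495 CPM (426 to 572). The 1 untreated cell with 17 GNRH2 UMIs had 35 MRPS26 UMIs, and the 18 without GNRH2 had 0 to 9. Other cells had 146 and 190 CPM. Reads of the 2 genes were assigned by the authors' counting and cannot be told apart further here.

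**Figure D5:**
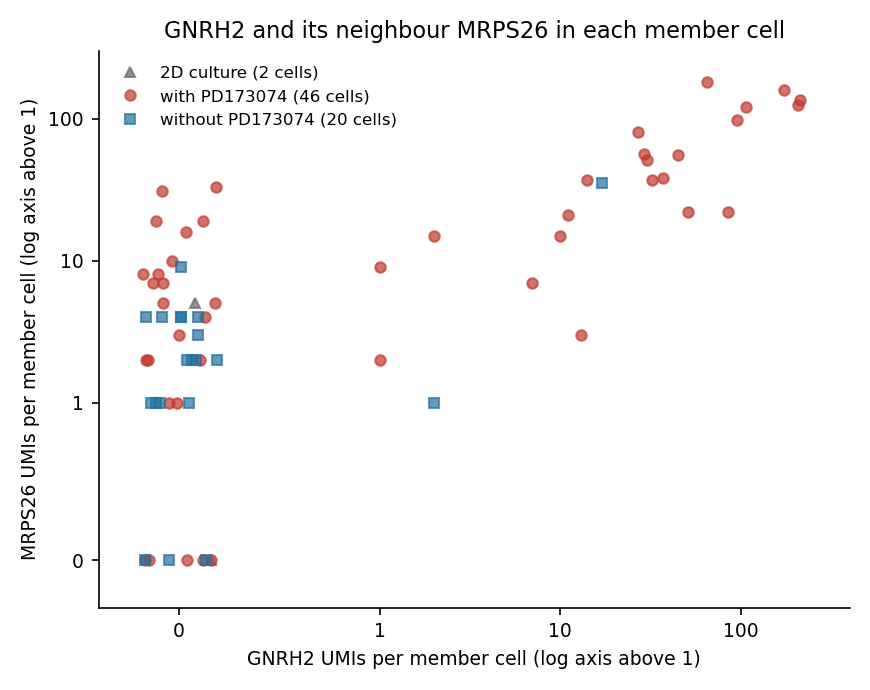
GNRH2 UMIs (horizontal) and MRPS26 UMIs (vertical) in each chosen cell, both axes logarithmic above 1 and linear below, with points at 0 GNRH2 spread sideways. The 18 cells with PD173074 and 1 without it that have 10 or more GNRH2 UMIs lie at the right, and their MRPS26 UMIs reach 180.

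Among the 15 genes with the largest ratios in each direction, most rested on 1 to 3 cells or on 1 UMI in the lower sample. The higher ones included RYR2 and SLC8A1, calcium-handling genes of heart muscle, at 114 and 293 CPM with PD173074 and 5.05 and 15.1 without it. RYR2 and SLC8A1 were at 1325 and 3952 CPM in other cells with PD173074, and the part of that RNA in the result was not tested. With TNNT2 and MYH6 held under 0.05% of UMIs, the log2 ratio of RYR2 was 1.72 in place of 4.50. NLGN1 had 159 of its 195 UMIs in 1 cell, and TFPI2 90 of 93. The lower ones included IGFBP1, with 44 UMIs in 3 cells without PD173074 against 1 UMI with it, and the cartilage collagens COL9A2 and COL9A3, with 14 of 19 and 34 of 44 UMIs in 1 cell. DLK1, a surface protein of fetal liver, had 143 UMIs in 9 cells without PD173074 and 28 in 5 cells with it, a log2 ratio of -4.50 (-5.14 to -3.91). Of those 143 UMIs, 114 were in 1 cell, and without it DLK1 was still counted as lower, at -2.20.

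PD173074 blocks FGF receptors, and the target pathway was therefore listed. In the chosen cells FGFR3 was at 45.6 CPM with PD173074 and 45.4 without it, and FGFR4 at 35.4 and 45.4. FGFR2 was at 62.7 and 20.2 CPM, a log2 ratio of 1.64 (0.20 to 3.56), which did not pass. Of 6 FGF receptor and ERK feedback genes at the floor, 0 were higher and 0 lower, against 1.36% and 2.31% of all genes at the floor. Their median log2 ratio was -1.14, against -0.16 over all genes. SPRY2, an inhibitor induced by ERK, was at 29.7 and 60.6 CPM (-2.07 to 0.09 on the log2 scale), and DUSP5 at 22.8 and 65.6. Glycolysis genes that respond to low oxygen gave 0 of 15 in either direction. At the shares over all genes, lists this short cannot show the absence of a difference.

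The gut-list cells were then compared alone, 35 with PD173074 and 12 without it. Of 4019 genes at the floor, 40 were higher (0.995%) and 68 lower (1.69%). The log2 ratio of GNRH2 was 3.33, of FABP1 1.84 and of PHGR1 1.47, and that of AFP was -3.04. Of the 315 AFP UMIs in the untreated gut-list cells, 112 and 154 were in 2 cells with only 8 and 4 gut-list UMIs. Those 2 cells held 666 and 179 liver-list UMIs, so the AFP ratio rests largely on them. PHGR1 belongs to the gut list that chose these cells. LGALS4 was not counted there, at 0.94. ALB and AHSG were lower there as well, with 2 and 14 UMIs with PD173074 against 79 and 93 without it. However, 1 cell without PD173074, with 8 gut-list UMIs, held 79 and 88 of these, 167 together. The lower levels of both genes thus rest on that cell.

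Cells with the gut list differed from the other chosen cells in genes that neither list contains. TFF3 was at 635 CPM in gut-list cells and 17.0 in the other chosen cells of the cardioids. HEPH, an iron oxidase of enterocytes, was at 225 and 11.4 CPM. LGALS3, a galectin named after its values were seen, was at 2972 and 216 CPM. These genes are examples picked from the higher side. Of 4069 genes at the floor, 110 were higher in gut-list cells (2.7%) and 169 lower (4.15%). Both sets of cells were chosen on their own RNA, so these values are a description.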

How the data were processed

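Single-cell RNA was measured with a 10x 3′ droplet kit in 11 libraries, of which 3 were runs of the 2D culture, 3 of treated and 5 of untreated cardioids. The deposited files hold raw UMI counts per gene and barcode, and the submitters' processing notes name Cell Ranger 7.0.0 and the build hg38. No source used here gives the annotation release or how strand was used. Groups follow the treatment label.

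From the counts, UMIs were summed over the chosen cells of the first run and scaled to CPM. Ratios have exact conditional binomial 95% intervals, and shares Clopper-Pearson intervals (differences by Newcombe's method). With 1 sample per group no p-value was computed. Genes were called higher or lower at 50 CPM or more in the higher sample with its interval beyond 2-fold, and 3 counts stood for 0. Calculations used Python 3.11.15, numpy 2.4.6, scipy 1.17.1, pandas 2.3.3 and statsmodels 0.14.6. On simulated counts for 36601 genes of this comparison, 23 of 50 genes set 3-fold apart, 35 of 50 at 4-fold and 50 of 50 at 8-fold were counted. Of 50 genes at 1.5-fold 0 were counted, and of 3345 unchanged ones 0. The simulated counts varied by counting error only, with no variation between cells. They cannot show how often a few cells with high counts lead to a call.

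Named genes were the 5 markers, the 20 leading genes, the 15 highest and 15 lowest between cardioids, and up to 6 genes with the highest level of each of 31 lists. Mitochondrially encoded, ribosomal protein and clone-named genes were left out of the leading and extreme genes. MRPS26, GC, HHEX, VIL1, CDX2, HNF4A, CHGA, LGALS3, NPPA and CDH5 were named after their values were seen. The members and lists were chosen with earlier results of these data known. Alternatives were other runs, cell and marker limits, scalings, floors and folds. The split by ALB and AHSG, taking out the top cell's UMIs, the gut-list cells alone and the deeper members alone were added after seeing the data.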

Additional observations from a re-analysis of the deposited data

How the results depend on the processing

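No paired analysis was possible because runs with the same number in different groups come from different droplets, and each group is 1 sample. Thinning cells to 2000 UMIs, with cells below that left out, moved the share with PD173074 to 0.627%. Thinning the members in the same way moved the gut-list shares to 58.1% with PD173074 and 35.0% without it. A floor of 20 CPM, or none, gave 146 lower genes, and one of 200 CPM gave 17 higher and 34 lower. A 1.5-fold threshold gave 115 higher and 200 lower, and a 3-fold threshold 28 and 48. Taking out each gene's UMIs in its top cell gave 17 and 21. Of the genes named, APOC3 reversed to a log2 ratio of 1.20 as a mean over cells and 0.58 without its top cell, ALB to 1.11 as a mean over cells, and PTN to 0.18 without its top cell, which held 22 of its 23 UMIs. The other 152 values for shares and counts stayed within their interval or 1.5 times the count. The difference in the share of all cells ranged from 0.210 to 0.520 points under the alternatives to the cell rule and the runs. The lowest, 0.210, came from cells thinned to 2000 UMIs, and no interval was computed for it. Among cells under the TNNT2 and MYH6 limit the difference was -0.417 points. Other runs in place of the first gave a difference of 0.439 to 0.468 points, and their mean 0.447. Limits are the few cells, 46 and 20, the single sample per group, and counting intervals that leave out variation between cells and organoids.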

Other observations

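Ferritin light chain (FTL), a subunit of the iron-storage protein, was among the most abundant transcripts of the chosen cells. It was at 15128 CPM with PD173074, from 2264 to 85629 per cell, and at 23627 CPM without it, from 3692 to 106697. Other cells had 2374 and 3290 CPM. The heavy chain FTH1 was at 4191 CPM with PD173074 and 11104 without it, a log2 ratio of -1.41 (-1.48 to -1.33), and other cells had 3240 and 4412 CPM. Without its top cell FTH1 was no longer counted as lower, at -1.03. Other cells under the cardiac limit had more FTL than other cells at large, 4624 CPM with PD173074 and 8881 without it. Their FTH1 was at 4007 CPM with PD173074 and 7810 without it, so lower FTH1 with PD173074 was not particular to the chosen cells.

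Proliferation genes varied widely over the chosen cells. The 25 cell cycle genes summed to a median of 130 CPM per cell with PD173074, with 2 cells at 9090 and 4216, and to 110 without it, with 1 cell at 5121. Pooled over both cardioids they were at 618 CPM in the chosen cells and 1014 in other cells.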
